A study of Mus musculus with 48 samples.

Results

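Cd4, Ltb and Cxcr4 were followed as named genes across mouse knee joints, as 3 of the 254 gene probes counted, and were picked by name. Cd4 encodes the coreceptor of helper T cells, which some dendritic cells and macrophages also carry. Ltb encodes lymphotoxin beta, a membrane protein made mainly by lymphocytes, and Cxcr4 encodes the receptor of the chemokine CXCL12. The mice were male C57BL/6, with an age of 3 months in the labels, and RNA was taken from equal masses of synovium and of cartilage with its subchondral bone. Healthy joints (n = 12) received no loading and no treatment, and the other 3 groups (n = 12 each) were loaded by noninvasive compression to model post-traumatic osteoarthritis. Loading began at the age of 8 weeks and ran for 4 weeks, with 5 sessions each week of 500 cycles at a force of 9 N. They were left untreated, or were given nanoparticles carrying small interfering RNA and an antibody to type II collagen, the main collagen of cartilage. The siRNA was directed against Mmp13 (siMMP13), which encodes a collagen-degrading metalloproteinase, or was a negative control (siNEG).

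Lymphotoxin beta joins lymphotoxin alpha, encoded by Lta, in a membrane complex that signals through the lymphotoxin beta receptor and helps to build lymphoid tissue. CXCR4 holds blood precursors and neutrophils in bone marrow, where stromal cells make CXCL12, and is found on most leukocytes. CD4 binds class II major histocompatibility molecules on antigen-presenting cells during T-cell recognition. Subchondral bone can hold marrow, so bulk joint RNA can contain transcripts of marrow cells beside those of synovium and cartilage.

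All 3 genes were measured above background in every sample. The lowest raw count of Cd4 in any of the 48 samples was 53 (exact Poisson 95% interval 39.7 to 69.3), that of Ltb was 32 (21.9 to 45.2) and that of Cxcr4 was 268 (237 to 302). The highest count of any negative control probe was 26, and each gene exceeded the mean plus 2 SD of its lane's negative controls in 48 of 48 samples. Each interval covers counting error only. Counts were scaled per sample by 6 housekeeping genes and are given below as normalized counts. Because each probe captures its target with its own efficiency, levels of different genes are not compared.

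Of the 3 genes, 2 matched the RefSeq promoter table used here, Ltb and Cxcr4, and their promoter letters are shown beside the levels of genes that were lower in each loaded group. They are the 250 bases before the annotated start in RefSeq (GRCm38.p6), written 5′ to 3′ on the strand of the gene. The Ltb window is chr17:35194257-35194506 on the plus strand and the Cxcr4 window is chr1:128592300-128592549 on the minus strand. Capitals mark matches on either strand to the ETS core AGGAAG, to the NF-kB consensus and to TATAAA.
Ltb: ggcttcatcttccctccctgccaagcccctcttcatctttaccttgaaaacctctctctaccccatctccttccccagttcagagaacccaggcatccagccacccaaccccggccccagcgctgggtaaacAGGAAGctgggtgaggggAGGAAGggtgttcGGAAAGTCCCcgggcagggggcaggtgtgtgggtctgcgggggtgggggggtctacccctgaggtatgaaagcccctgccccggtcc
Cxcr4: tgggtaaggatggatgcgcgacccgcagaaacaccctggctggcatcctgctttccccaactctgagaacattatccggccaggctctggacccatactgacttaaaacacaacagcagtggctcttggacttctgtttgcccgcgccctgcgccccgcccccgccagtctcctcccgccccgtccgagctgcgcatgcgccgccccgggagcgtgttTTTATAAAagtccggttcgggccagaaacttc
The Ltb window held AGGAAG at 2 places, 118 to 113 and 100 to 95 bases before the start, and 1 match to the NF-kB consensus on the minus strand, 87 to 78 bases before the start. The Cxcr4 window held TATAAA 30 to 25 bases before the start, overlapped by its match on the other strand. Of the 32851 RefSeq promoter windows cut to the same length, 29.5% held AGGAAG, 3.90% the NF-kB consensus and 12.4% TATAAA, the last searched after the sequences were seen. Neither window held the RUNX core TGTGGT, present in 14.0% of windows, or the hypoxia response core ACGTG, present in 16.6%. The matches describe letters and say nothing of binding. In the same annotation Ltb lies on chromosome 17 beside Tnf, with Lta as the next gene after it.

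The depth and make-up of the samples differed. Total gene counts ran from 36415 to 302377 per sample, with a median of 113747 for healthy joints, 162624 for untreated, 116985 for siNEG and 148381 for siMMP13. In 4 libraries (healthy replicate 2 and siMMP13 replicates 7, 8 and 11) a housekeeping gene lay over 1 log2 unit from its median after scaling, and values without them are given where they alter a result. Myl2, a muscle gene, had a median of 49.2 normalized counts in healthy, 39.7 in untreated, 265 in siNEG and 286 in siMMP13 joints. Mmp13 itself was not analysed here, and its knockdown was not checked.

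The first comparison asked how loading alone related to the 3 genes. Ltb, Cxcr4 and Cd4 were all lower in loaded untreated than in healthy joints, Ltb by 1.76-fold, Cxcr4 by 1.45-fold and Cd4 by 1.42-fold. Of all 196 genes tested, 14.8% were called lower in this comparison (adjusted p under 0.05 by edgeR), and the median log2 fold change of all of them was 0.15. Counted from the most lowered, Ltb ranked 5, Cxcr4 ranked 11 and Cd4 ranked 16 of 196. In RNA from whole tissue, fewer cells of a type and less RNA per cell cannot be told apart.

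Ltb showed the widest gap. It ran from 143 to 300 normalized counts in healthy joints, with a median of 224, and from 97.7 to 172 in untreated joints, with a median of 128. Every one of the 12 untreated samples lay below the healthy median, and 9 of 12 lay below the lowest healthy sample. The groups therefore overlapped only at the 2 lowest healthy samples, replicates 2 and 5. The means were 226 ± 47.7 in healthy and 128 ± 25.3 in untreated joints (SD, n = 12 each), a log2 fold change of -0.82 ± 0.12 (SE; edgeR, adjusted p = 1.5e-05).

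**Figure D1:**
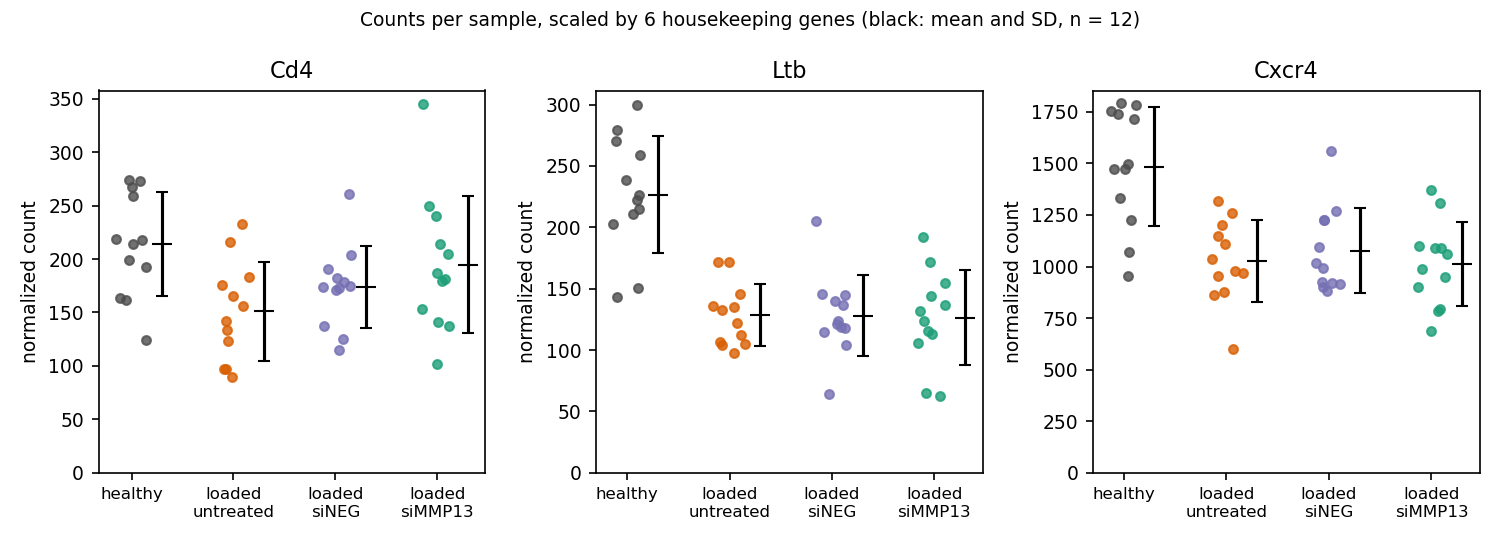
Normalized counts of Cd4, Ltb and Cxcr4 (vertical axes, from 0) in each sample of the 4 groups, with the mean and SD in black (n = 12 each). Ltb and Cxcr4 sit lower in all 3 loaded groups than in healthy joints, whereas the Cd4 points of the siMMP13 group reach 345, above the highest healthy sample at 274.

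Cxcr4 ran from 952 to 1794 normalized counts in healthy joints, with a median of 1485, and from 600 to 1319 in untreated joints, with a median of 1006. All 12 untreated samples lay below the healthy median, and 3 of them below the lowest healthy sample, so the ranges overlapped more than those of Ltb. The means were 1484 ± 289 and 1026 ± 199 (SD, n = 12 each), and the log2 fold change was -0.53 ± 0.12 (SE; edgeR, adjusted p = 0.00027).

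Cd4 ran from 124 to 274 normalized counts in healthy joints, with a median of 216, and from 89.9 to 233 in untreated joints, with a median of 149. Of the 12 untreated samples, 11 lay below the healthy median and 4 below the lowest healthy sample. The means were 214 ± 48.7 and 151 ± 46.3 (SD, n = 12 each), a log2 fold change of -0.50 ± 0.16 (SE; edgeR, adjusted p = 0.010). All 3 calls of untreated against healthy joints held when any single sample was left out and under each of 15 other settings.

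The shift of the whole panel depended on the scaling. With housekeeping genes as the reference, 62 genes were called higher and 29 lower in untreated joints, against 47 and 51 with TMM scaling, which shifted the log2 fold changes by a median of -0.19. The corresponding split was 74 and 24 against 51 and 62 for siNEG joints (median shift -0.24), and 68 and 29 against 54 and 52 for siMMP13 joints (median shift -0.15). Ltb and Cxcr4 were called lower against healthy joints under both scalings in all 3 loaded groups.

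The next comparisons asked whether the same genes were lower in loaded joints that had received nanoparticles. Ltb and Cxcr4 were lower in both siRNA groups by about as much as without treatment, whereas Cd4 passed the test in neither. These comparisons share the healthy samples with the first, so their values are given side by side and are not independent. Among all genes tested, 12.2% were called lower in siNEG and 14.8% in siMMP13 joints.

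Ltb ran from 64.3 to 205 normalized counts in siNEG joints, with a median of 122, and from 62.3 to 192 in siMMP13 joints, with a median of 128. In each of these groups all 12 samples lay below the healthy median, and 9 siNEG and 8 siMMP13 samples lay below the lowest healthy sample. Ltb was 1.77-fold lower in siNEG joints (log2 fold change -0.82 ± 0.15 SE, edgeR adjusted p = 1.4e-05) and 1.79-fold lower in siMMP13 joints (-0.84 ± 0.17, adjusted p = 1.1e-05). Its rank from the most lowered was 3 in siNEG and 5 in siMMP13 joints.

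Cxcr4 ran from 880 to 1562 normalized counts in siNEG joints, with a median of 1004, and from 688 to 1370 in siMMP13 joints, with a median of 1024. Of the siNEG samples 11 of 12 lay below the healthy median and of the siMMP13 samples 12 of 12, with 5 in each group below the lowest healthy sample. Cxcr4 was 1.38-fold lower in siNEG joints (log2 fold change -0.46 ± 0.12 SE, edgeR adjusted p = 0.0012) and 1.47-fold lower in siMMP13 joints (-0.55 ± 0.12, adjusted p = 0.00014).

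Cd4 ran from 114 to 261 normalized counts in siNEG joints, with a median of 174, and from 102 to 345 in siMMP13 joints, with a median of 184. Of the samples, 11 of 12 with siNEG and 9 of 12 with siMMP13 lay below the healthy median, and in each group only 1 lay below the lowest healthy sample. The difference from healthy joints was -0.30 ± 0.14 log2 units in siNEG (edgeR adjusted p = 0.11, 95% interval -0.62 to 0.03) and -0.14 ± 0.17 in siMMP13 joints (adjusted p = 0.47, -0.49 to 0.16). The siNEG difference passed under TMM scaling (-0.53, adjusted p = 0.012), under DESeq2 size factors (-0.51, 0.018) and under total-count scaling (-0.48, 0.028), so for Cd4 this call depends on the scaling. With single samples left out the siMMP13 difference ran from -0.25 (without siMMP13 replicate 4) to -0.079 (without siMMP13 replicate 10) and passed in none of these fits. These intervals, here and below, are unadjusted and come from limma on log2(normalized count + 1).

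With the 3 loaded groups averaged against healthy joints, where 19.4% of all genes tested were called lower, each of the 3 genes was lower by edgeR. The log2 fold change was -0.83 ± 0.11 for Ltb (adjusted p = 1.0e-07), -0.52 ± 0.10 for Cxcr4 (adjusted p = 1.0e-05) and -0.31 ± 0.12 for Cd4 (adjusted p = 0.033). The Cd4 call was lost without healthy replicate 1, 6, 9 or 11 (adjusted p = 0.066 to 0.073), with Myl2 as a covariate (-0.23, adjusted p = 0.14), and when Gusb was left out of the scaling (-0.27, adjusted p = 0.072). The order of mean Cd4 levels was healthy (214 ± 48.7 normalized counts), siMMP13 (195 ± 64.1), siNEG (174 ± 38.3) and untreated (151 ± 46.3; SD, n = 12 each), and no neighbours in that order passed the test. Ltb had means of 128 ± 32.8 in siNEG and 126 ± 38.5 in siMMP13 joints, next to 128 in untreated joints. Cxcr4 had means of 1077 ± 207 in siNEG and 1011 ± 204 in siMMP13 joints, next to 1026 in untreated joints. For both genes the step from healthy joints to the highest loaded mean passed, and no step among the loaded groups did.

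**Figure D2:**
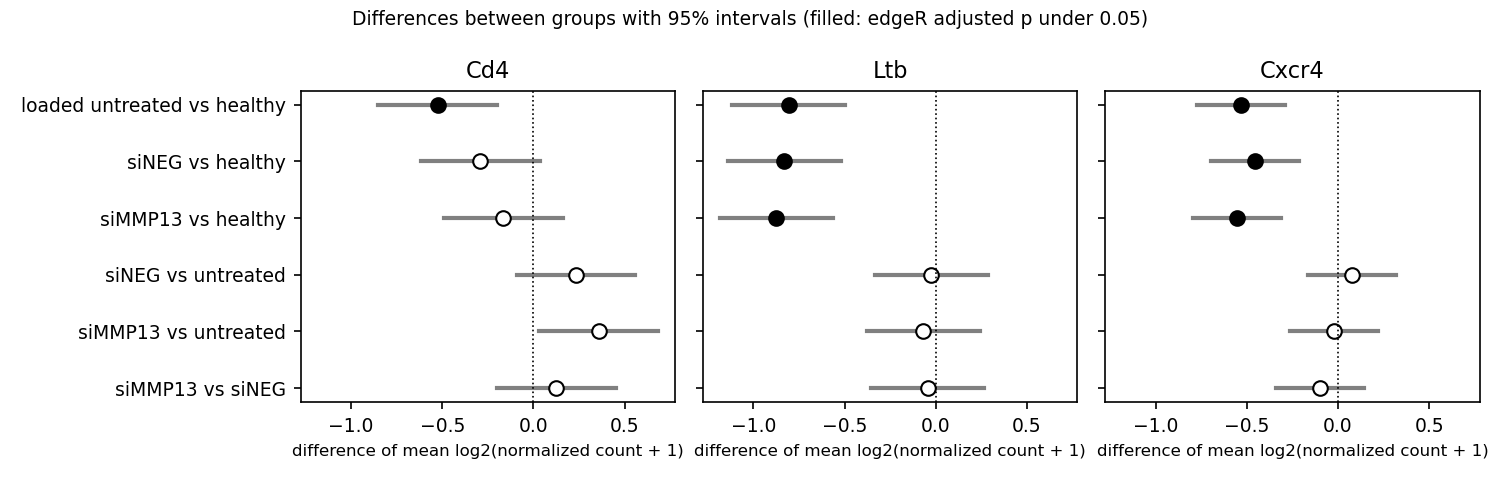
Difference between group means of log2(normalized count + 1) for each gene (horizontal axes, log2 units) in 6 comparisons, as limma estimates with 95% intervals as bars. Filled points passed the edgeR test: all 3 comparisons with healthy joints for Ltb and Cxcr4, but only loaded untreated for Cd4, and no comparison among loaded groups.

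The comparisons among loaded joints asked whether the siRNA against Mmp13, or the treatment as a whole, altered the 3 genes. None passed the test in any of them. Between siMMP13 and siNEG joints, where edgeR called 6.12% of all genes in either direction, Cd4 differed by 0.16 ± 0.16 log2 units (95% interval -0.20 to 0.45), Ltb by -0.014 ± 0.18 (-0.35 to 0.27) and Cxcr4 by -0.092 ± 0.11 (-0.34 to 0.14). The adjusted p was 0.58, 0.96 and 0.67. With single samples left out the Cd4 difference ran from 0.053 (without siMMP13 replicate 4) to 0.23. These intervals leave room for differences smaller than their bounds. Over all genes the split of calls turned with the scaling, from 3 higher and 9 lower to 8 higher and 1 lower with TMM.

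Between siMMP13 and untreated joints, where 3.57% of genes were called, Cd4 had a difference of 0.36 ± 0.19 log2 units (SE; 95% interval 0.03 to 0.68), with 9 of 12 siMMP13 samples above the untreated median. It failed after adjustment (edgeR, unadjusted p = 0.031, adjusted p = 0.22), although it ranked 18 from the top of 196 genes. Over all genes 4 were called higher and 3 lower, against 9 and 4 with TMM and 2 and 8 with total-count scaling. Ltb differed by -0.019 ± 0.16 (-0.38 to 0.24) and Cxcr4 by -0.022 ± 0.12 (-0.26 to 0.22), with adjusted p of 0.98 and 0.96. Between siNEG and untreated joints, where 1.53% of genes were called, the differences were 0.20 ± 0.16 for Cd4 (-0.09 to 0.56), -0.0048 ± 0.14 for Ltb (-0.33 to 0.28) and 0.071 ± 0.12 for Cxcr4 (-0.17 to 0.32), with adjusted p of 0.89, 0.99 and 0.95. The signs of the Ltb and Cxcr4 differences among loaded groups changed with the scaling or with single samples, and all of them lay within the spread between samples.

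Whether the 3 genes moved apart was examined on the ratio of their raw counts within each sample, which no scaling changes. These 18 tests were added after the data were seen and were adjusted together (two-sided permutation tests, 100000 resamples). Only shifts of a ratio between groups are read, since its absolute value reflects the probes. The ratio of Cd4 to Ltb ran from 0.778 to 1.14 in healthy joints, with a median of 0.949. It had a median of 1.03 in untreated (0.736 to 2.07), 1.38 in siNEG (0.931 to 1.96) and 1.49 in siMMP13 joints (0.960 to 3.44). All 12 siMMP13 samples and 10 of 12 siNEG samples lay above the healthy median. Against healthy joints the log2 ratio was higher by 0.71 ± 0.18 with siMMP13 (SE; permutation test, adjusted p = 0.0022) and by 0.54 ± 0.12 with siNEG (adjusted p = 0.0023), while the untreated difference of 0.28 ± 0.13 did not pass (adjusted p = 0.084). The 3 siMMP13 libraries that stood apart had the 3 highest siMMP13 ratios. Without them and healthy replicate 2 the siMMP13 difference was 0.42 (adjusted p = 0.013) and the siNEG difference 0.53 (adjusted p = 0.0072).

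The ratio of Cd4 to Cxcr4 was higher in siMMP13 joints than in healthy and untreated joints. Its median was 0.148 in healthy (0.122 to 0.185), 0.146 in untreated (0.0869 to 0.221), 0.162 in siNEG (0.124 to 0.198) and 0.180 in siMMP13 joints (0.144 to 0.272). In siMMP13 joints the log2 ratio was higher than in healthy joints by 0.39 ± 0.11 (SE; permutation test, adjusted p = 0.0060) and higher than in untreated joints by 0.38 ± 0.15 (adjusted p = 0.047), with 10 of 12 samples above the untreated median. Without the 4 libraries that stood apart the latter was 0.32 (adjusted p = 0.14) and no longer passed. The difference from siNEG joints, 0.22 ± 0.11, did not pass (adjusted p = 0.084), and untreated joints differed from healthy joints by 0.0051 ± 0.12 (adjusted p = 0.97).

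**Figure D3:**
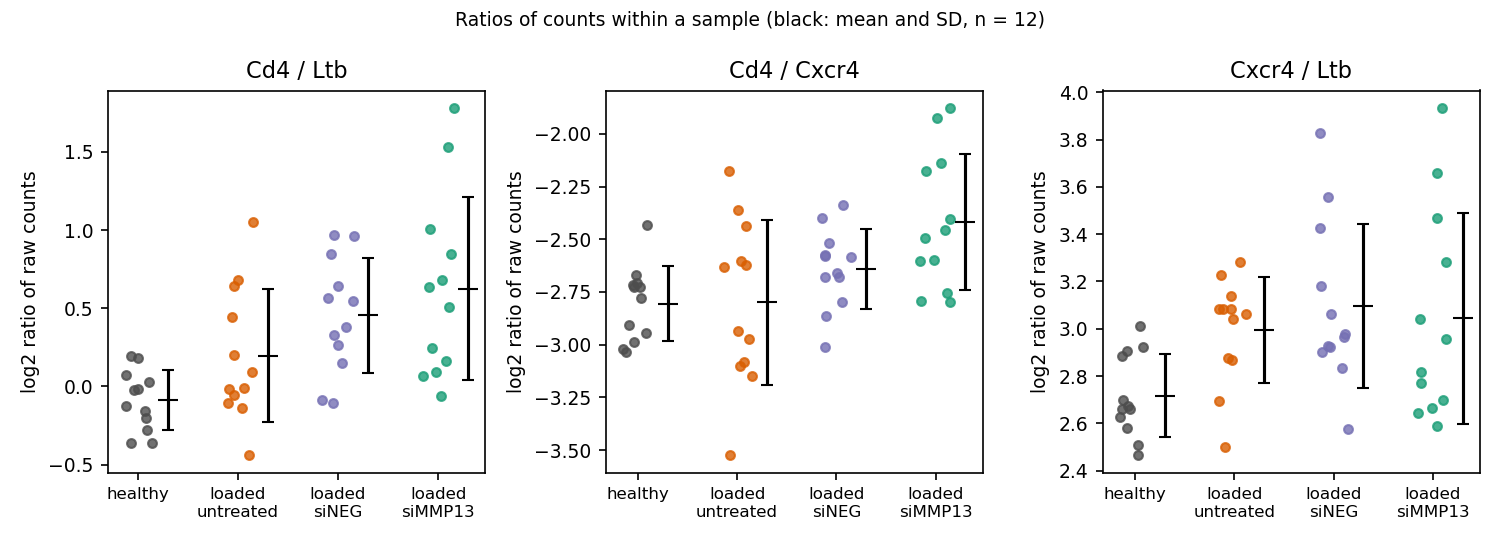
Log2 ratio of the raw counts of each pair of genes (vertical axes) in each sample of the 4 groups, with the mean and SD in black (n = 12 each). The ratio of Cd4 to Ltb lies above the healthy median in all 12 siMMP13 samples, and the healthy samples spread least in all 3 panels.

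The ratio of Cxcr4 to Ltb had a median of 6.35 in healthy, 8.42 in untreated, 7.84 in siNEG and 7.40 in siMMP13 joints. Relative to Cxcr4, Ltb was lower in untreated and siNEG joints than in healthy joints. The log2 ratio was higher than in healthy joints by 0.28 ± 0.08 in untreated (SE; permutation test, adjusted p = 0.012) and by 0.38 ± 0.11 in siNEG joints (adjusted p = 0.0060), each with 11 of 12 samples above the healthy median. The siMMP13 difference of 0.33 ± 0.14 did not pass (adjusted p = 0.058), and without the 4 libraries that stood apart it was 0.11 (adjusted p = 0.33).

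Samples of the same group differed, and the 3 genes varied together in some groups. Within the healthy group the Pearson correlation of log2(normalized count + 1) was 0.84 for Cd4 with Ltb, 0.86 for Cd4 with Cxcr4 and 0.85 for Ltb with Cxcr4 (n = 12, permutation tests, adjusted p = 0.0031 each, over 12 relations). The Spearman values were 0.83, 0.83 and 0.78 (adjusted p = 0.0078, 0.0078 and 0.011). Leaving out the 2 samples farthest from the median of the x measure gave 0.69 (permutation p = 0.029), 0.66 (p = 0.037) and 0.56 (p = 0.095). These p-values are unadjusted, unlike those above. All 3 values fell. Leaving out the farthest samples narrows the range of the x measure, which can lower r by itself. Whether each relation rests on those samples was therefore not settled. In healthy replicates 2 and 5 all 3 genes had their 2 lowest healthy values. These replicates had the 2 highest healthy levels of Myl2 (487 and 788) and the 2 lowest of Mmp9 (1659 and 1834). The cells that carried Mmp9 were not identified.

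Cd4 and Cxcr4 were also correlated in siNEG joints, with a Pearson value of 0.81 (permutation, adjusted p = 0.0031) and a Spearman value of 0.69 (adjusted p = 0.037), and 0.69 without the 2 farthest samples. In siMMP13 joints the Pearson value was 0.72 (permutation, adjusted p = 0.016) but the Spearman value of 0.57 did not pass (adjusted p = 0.096). Without the 2 farthest samples the Pearson value was 0.43 (n = 10, unadjusted permutation p = 0.22). Ltb and Cxcr4 were correlated in untreated joints, with a Pearson value of 0.71 (adjusted p = 0.016), a Spearman value of 0.82 (adjusted p = 0.0078) and 0.72 without the 2 farthest samples. The other 6 relations, with Pearson values of 0.26 to 0.53, did not pass. The genes share each library's scaling factor.

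**Figure D4:**
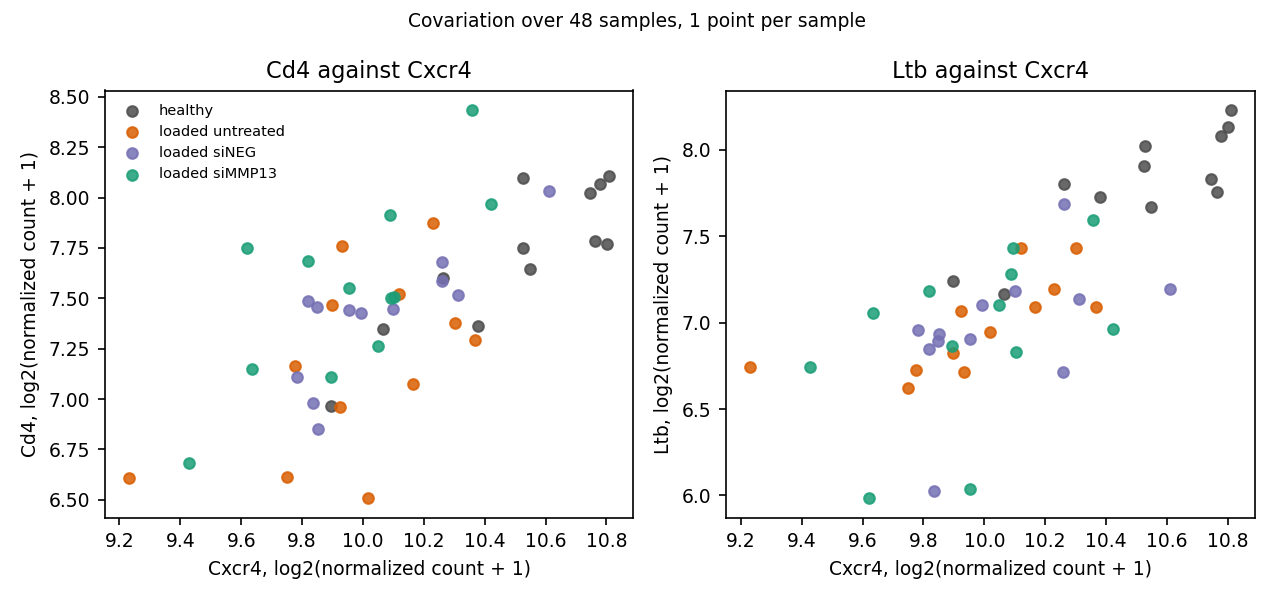
Cd4 (left) and Ltb (right) against Cxcr4, all as log2(normalized count + 1), with 1 point for each of the 48 samples coloured by group. Most healthy samples lie at the upper right, and healthy replicates 2 and 5 lie among the loaded samples.

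The genes most like each of them across samples were found from deviations from group means over the 48 samples and 195 other genes, as a description with no test. For Cxcr4 they were Alox5 (Pearson r = 0.87), which encodes 5-lipoxygenase, Ltb4r1 (0.85), the leukotriene B4 receptor, Prkcb (0.85), a protein kinase C, Cxcr2 (0.82), a chemokine receptor of neutrophils, and Il18rap (0.82), an interleukin-18 receptor chain. For Ltb they were Chi3l3 (0.79), a chitinase-like gene of myeloid cells, Nfkb1 (0.74), an NF-kB subunit, Cxcr2 (0.71), Bcl2l1 (0.67), a survival gene, and Rhoa (0.67), a small GTPase. For Cd4 they were Cxcr4 (0.71), Hsh2d (0.70), an adaptor of blood cells, Alox15 (0.70), a lipoxygenase of eosinophils and macrophages, Ptgs1 (0.68), cyclooxygenase 1, and Alox12 (0.68), the platelet-type lipoxygenase. The median r over all genes was -0.12 for Cd4, 0.18 for Ltb and 0.01 for Cxcr4. Within single groups, r with Ltb fell to 0.17 (siNEG) and 0.21 (untreated) for Rhoa, 0.26 (untreated) for Bcl2l1 and 0.36 (siNEG) for Nfkb1. It was at least 0.68 for Chi3l3 and 0.63 for Cxcr2. The lowest value in any group was 0.53 among the genes named for Cd4 and 0.66 among those for Cxcr4.

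The label of lymphocyte genes was set against other T helper genes. Of 20 genes on the list 16 had a probe here and only 3 passed the count filter, namely Cd4, Ltb and Ccr7, the lymph node homing receptor. Ccr7, the only tested gene of the list besides Cd4 and Ltb, was lower in untreated joints. Its log2 fold change was -0.50 ± 0.17 (SE; edgeR adjusted p = 0.0034), and 14.8% of all genes tested were lower there. Cd4 and Ltb are the genes under study, so their own calls on the list add nothing to the label. In siNEG and siMMP13 joints Ccr7 was also lower, against 12.2% and 14.8% of all genes. With siMMP13 it was not called when Gusb was dropped or only Cltc, Gapdh and Pgk1 were used. The other 13 lay above the negative controls in at most 10 of 48 samples (Ifng, the T-cell interferon), and 6 of them in none. Cd40lg, the helper T-cell ligand of CD40, did so in 1 of 48 samples, with a highest raw count of 14. The summed level of the 14 genes other than Cd4 and Ltb had a median of 140 normalized counts in healthy (80.8 to 183), 103 in untreated (84.4 to 136), 93.1 in siNEG (82.0 to 203) and 106 in siMMP13 joints (88.5 to 198). Ccr7 alone had means of 51.3 in healthy and 35.9 in untreated joints. The rest of the sum comes from the 13 genes near background, so it is not read as a level of T helper cells. The T-cell receptor genes Cd3d and Cd3e were not analysed here, so the cells that carried Cd4 and Ltb were not identified.

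Ltb acts with Lta, which lay above the negative controls in 2 of 48 samples with a highest raw count of 17. Of 17 lymphotoxin pathway genes, 10 had a probe and 9 were tested. In untreated joints 1 was higher (Ccl21a, a chemokine of lymphoid stroma, by 1.77 ± 0.32) and 1 was lower (Ltb). In siNEG joints 4 were higher and 1 lower (Ltb again), and in siMMP13 joints 4 were higher and 2 lower (Ltb and Tnfsf14). Tnfsf14, another ligand of the lymphotoxin beta receptor, differed by -0.29 in untreated joints (edgeR adjusted p = 0.053), and Relb, an NF-kB subunit, by 0.18 (adjusted p = 0.18). Among all genes tested 31.6% were called higher and 14.8% lower in untreated, 37.8% and 12.2% in siNEG, and 34.7% and 14.8% in siMMP13 joints. The median log2 fold change of the 9 in untreated joints was -0.021, against 0.15 for all genes. With TMM scaling the balance moved, to 1 higher and 4 lower in untreated, 1 and 3 in siNEG, and 3 and 3 in siMMP13 joints.

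Around Cxcr4, 22 of 24 genes of its signalling and regulation had a probe and 19 were tested. In untreated joints 4 were higher and 2 lower, in siNEG joints 6 and 1, and in siMMP13 joints 4 and 3, to be read against the shares of all genes just given. These counts, here and below, include Cxcr4 itself, which was the only lower gene in siNEG joints. The other lower genes were Prkca, a protein kinase C, in untreated joints, and Prkca and Prkcb in siMMP13 joints. The median log2 fold change of the 19 in untreated joints was 0.11. Hif1a, an oxygen-sensing transcription factor known to raise CXCR4, was higher in untreated joints with a log2 fold change of 1.10 ± 0.13 (SE), the opposite direction from Cxcr4. Ptk2, the focal adhesion kinase, was higher by 0.52 ± 0.09, and Plcb1, a phospholipase C, by 0.56 ± 0.14. With TMM scaling the balance reversed in untreated joints, to 3 higher (these same genes) and 5 lower, as it did in siNEG (3 and 5) and turned further in siMMP13 joints (2 and 8, and 1 and 10 with total counts). The ligand gene Cxcl12 was not analysed here.

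Cd4 recognises class II molecules, and of the 7 genes listed for class II presentation and B cells, 3 were tested. H2-Eb1, a class II chain, was lower in untreated joints (-0.42 ± 0.15, edgeR adjusted p = 0.0050) as Cd4 was. This was 1 of the 3, against 14.8% of all genes tested. Cd86, a costimulatory ligand, differed there by 0.15 (edgeR adjusted p = 0.44) and Cd40 by 0.05 (adjusted p = 0.85), neither called. In siMMP13 against untreated joints H2-Eb1 was higher by 0.44 and Cd86 by 0.60, both called, whereas Cd4 with 0.36 was not. These were 2 of the 3, against 3.57% of all genes called in either direction. Neither of these calls held under total-count scaling or when only Cltc, Gapdh and Pgk1 were used, and that of H2-Eb1 was also lost when Gusb was dropped. Against healthy joints H2-Eb1 was called lower in siNEG joints, but not when Gusb was dropped, and Cd86 was called higher in siMMP13 joints. Of all genes tested, 12.2% were called lower in siNEG and 34.7% higher in siMMP13 joints.

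Markers of other cells moved in both directions. Of 12 genes listed for marrow granulocytes and eosinophils 5 were tested, and S100a8, S100a9, Csf3r, Mpo, Elane and Ltf were not analysed here. All 5 tested genes of marrow granulocytes and eosinophils were lower in the mean of the loaded groups, and 4 of 5 were in untreated joints, among them Alox15 (-0.99), Ccr3 (-0.76), the eotaxin receptor, Mmp9 (-0.51, not called if Gusb was dropped) and Alox5 (-0.45). In siNEG joints 4 of 5 and in siMMP13 joints 3 of 5 were lower. The shares of all genes called lower were 19.4% for the loaded mean, 14.8% in untreated, 12.2% in siNEG and 14.8% in siMMP13 joints. When Gusb was dropped the counts were 4 of 5 for the loaded mean and 3 of 5 in each loaded group. The summed level of 6 such genes had a median of 5420 normalized counts in healthy (2426 to 6544), 3508 in untreated (2093 to 5396), 3636 in siNEG (2464 to 5714) and 4145 in siMMP13 joints (1629 to 5475). Mmp9 alone ran from 1659 to 5045 in healthy joints, so the sum mostly reflects Mmp9, which was not called in siNEG or siMMP13 joints. The sum is therefore not read as a level of these cells. Across samples, after group means were removed, Mmp9 had r = 0.61 with Cd4, 0.55 with Cxcr4 and 0.25 with Ltb, whose median r over all genes was 0.18. Among the 195 other genes Mmp9 ranked 18 for Cd4, 25 for Cxcr4 and 84 for Ltb. Tyrobp, a gene of the macrophage and monocyte list, had r = 0.57 with Cd4, 0.47 with Cxcr4 and 0.024 with Ltb. The relation of Cd4 and Cxcr4 to Mmp9 was thus not particular to the granulocyte list. The macrophage list had 4 genes higher and 4 lower of 14 in untreated joints, against 31.6% and 14.8% of all genes tested. Those with the smallest p were Retnla (-3.05), C3ar1 (1.54), Arg1 (2.32) and Mrc1 (-0.36). Summed medians of the list were 24249 normalized counts in healthy (14082 to 32324), 21577 in untreated (16770 to 27816), 19979 in siNEG (16414 to 27924) and 24311 in siMMP13 joints (17576 to 30832). The ranges overlapped. Genes with high counts weigh most in this sum. Chi3l3 alone had a mean of 7805 in healthy joints, and Tyrobp reached 19828 in siMMP13 replicate 7, 1 of the libraries that stood apart. The sum is therefore not read as a level of macrophages. Flt1, the only gene tested of an endothelium list, was higher in untreated joints by 0.74 ± 0.12 (SE; edgeR adjusted p = 1.5e-05). It was also called higher in siNEG and siMMP13 joints. The part of these cell types in the results for Cd4, Ltb and Cxcr4 was not tested.

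Muscle content was set beside the calls directly. With log2 Myl2 as a covariate the log2 fold change of Ltb against healthy joints was -0.81 in untreated, -0.78 in siNEG and -0.80 in siMMP13 joints, and that of Cxcr4 was -0.53, -0.38 and -0.48, all still called by edgeR. For Cd4 it was -0.50 in untreated joints (adjusted p = 0.0089), -0.16 in siNEG (adjusted p = 0.45) and -0.029 in siMMP13 joints (adjusted p = 0.89), the latter pair smaller than without the covariate. Without the 4 libraries that stood apart, Ltb was lower by edgeR in untreated (-0.86), siNEG (-0.87) and siMMP13 joints (-0.73).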

How the data were processed

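RNA was counted on the NanoString nCounter Mouse Inflammation v2 panel, per the labels' protocols, which counts barcoded probes on RNA molecules without amplification. The values deposited by the authors are raw whole-number counts per probe: 248 endogenous genes, 6 housekeeping genes and 14 controls. Further processing was not given in the sources used here. Groups came from titles and treatment labels. Whether each group's 12 samples are 12 animals is not stated, so the p-values reflect sample-to-sample spread that may be technical. No 2 samples were identical.

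Scaling used the geometric mean of the 6 housekeeping genes (Gapdh, Cltc, Pgk1, Hprt, Tubb5 and Gusb) in a sample. The 196 of 248 endogenous genes that exceeded 20 counts in 12 or more samples were tested in 1 fit of all groups with the quasi-likelihood test of edgeR 4.0.16 (R 4.3.3), with Benjamini-Hochberg adjustment over all genes tested and a threshold of 0.05. Standard errors come from log2(normalized count + 1), and intervals from limma 3.58.1. Permutation tests used numpy 2.4.6, with ranks for the Spearman values from scipy 1.17.1. The edgeR fit was tested on simulated data. Alternatives were TMM, DESeq2 1.42.0 size factors and its Wald test, total counts, other housekeeping sets, other filters, negative control subtraction, limma, smaller fits, a replicate block, Myl2 as a covariate and leaving out samples. The genes, lists and tests were chosen with earlier results of these data known. Named are the 3 genes, the 5 most like each, and list members. Replicate numbers did not pair the samples: 29 of 72 same-number pairs had correlated deviations over 0.1.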

Additional observations from a re-analysis of the deposited data

How the results depend on the processing

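Ltb and Cxcr4 against healthy joints in all 3 loaded groups, and Cd4 in untreated joints, were called under all 15 other settings and without any single sample. For Cd4, siNEG against healthy joints passed with TMM (-0.53), with DESeq2 size factors (-0.51) and with total counts (-0.48) as the scaling. The Cd4 difference of the mean loaded group failed without Gusb (-0.27) and with the Myl2 covariate (-0.23), and ran from -0.37 to -0.28 with single samples left out, failing without healthy replicate 1, 6, 9 or 11. With the replicate number as a block (replicate block), the untreated differences were -0.49 for Cd4, -0.82 for Ltb and -0.54 for Cxcr4, and no call of these genes changed.

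Signs turned only for differences that were not called. For Ltb, siMMP13 minus siNEG was 0.055 with TMM, 0.063 with DESeq2 factors, 0.079 with Cltc, Gapdh and Pgk1, and 0.13 without the 4 libraries that stood apart, and ran from -0.082 to 0.064 with single samples left out. Ltb in siMMP13 minus untreated was 0.0075, 0.026, 0.011 with Myl2 and 0.13 without the 4 libraries (single samples, -0.087 to 0.043). Ltb in siNEG minus untreated was 0.030 with Myl2 (-0.083 to 0.060). Cxcr4 in siMMP13 minus siNEG was 0.024 with TMM, 0.028 with DESeq2 factors and 0.016 with 3 housekeeping genes. Cxcr4 in siMMP13 minus untreated was 0.058, 0.070 and, with Myl2, 0.050 (-0.075 to 0.020), and in siNEG minus untreated it was -0.020 with 3 housekeeping genes.

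Counts of all genes called among loaded groups moved. For siMMP13 against siNEG (12) they were 2 with 3 housekeeping genes or the replicate block, 3 without Gusb, 4 with no filter or a fit of only these groups, 7 with Myl2 and 5 without the 4 libraries. For siMMP13 against untreated (7) they were 13 with TMM or DESeq2 factors, 1 with 3 housekeeping genes and 18 with Myl2. For siNEG against untreated (3) edgeR called 1 with 3 housekeeping genes and 0 with TMM, DESeq2 factors, total counts or no Gusb, where 20, 21, 20 and 13 genes had an unadjusted p under 0.05, and the DESeq2 Wald test called 3. In untreated joints Cd4 with Cxcr4 gave r = 0.68 with TMM and 0.74 with total counts, and Cd4 with Ltb 0.68 with total counts, each passing. Without the 4 libraries the log2 ratio differences were -0.10 for Cd4/Ltb in siMMP13 minus siNEG, -0.0075 for Cd4/Cxcr4 in untreated minus healthy, 0.32 (no longer passing) for Cd4/Cxcr4 in siMMP13 minus untreated and -0.17 for Cxcr4/Ltb in siMMP13 minus untreated. With negative controls subtracted Cxcr4/Ltb in siMMP13 minus healthy was 0.39 and passed, whereas without the 4 libraries it was 0.11 and did not. The cause of these changes was not tested. Depth limits Ltb most, with a lowest raw count of 32 (21.9 to 45.2).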
